A study of Mus musculus with 20 samples.

Results

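The cytosolic ribosomal protein genes of the heart apex were compared between mice with cardiac AL amyloidosis and their controls. Members were the rows of the count table whose gene symbol has the form of a cytosolic ribosomal protein name (Rps, Rpl or Rplp with a number, or Rpsa). Symbols of named pseudogenes that end in -ps were not taken. This gave 86 genes out of 25308, spread over every autosome but the nineteenth and over the X chromosome. Of these, 82 are protein coding in the annotation, whereas Rpl6l, Rps12l1 and Rpl32l are processed pseudogenes and Rps4l is a transcribed processed pseudogene that still carry the name of a gene. Levels are given as CPM, which are counts relative to the size of the library, with library sizes scaled by the TMM method.

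Polyadenylated RNA came from the apical part of the heart of 20 mice. The 9 AL mice carried the human lambda light chain gene of a patient (λS) inserted at the mouse kappa locus on the DH-LMP2A background (DH), had amyloid induced by injection of fibrils or of the variable domain of this light chain, and had cardiac deposits. The 4 LS mice had the same genotype and the circulating light chain but no injection and no deposits. The 7 Ctrl mice were DH mice, which share with both other groups the lack of immunoglobulin heavy chains and the raised number of plasma cells, but do not carry the transgene. The light chain is thus made by plasma cells and not by the heart, and the controls were matched for age. Sequencing was done in 2 runs, the batches of the labels: run 1 held 7 AL, 4 LS and 4 Ctrl mice, and run 2 held 2 AL and 3 Ctrl mice, so that every LS mouse is in run 1.

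The cytosolic ribosome is built of a small subunit, which reads the mRNA, and a large subunit, which forms the peptide bond. Its proteins are needed in fixed proportions, and their mRNAs are among the most abundant of any cell. Most of these mRNAs start with a C followed by an unbroken run of C and T (U in the RNA), the TOP motif, through which the mTORC1 kinase, a growth and nutrient sensor, sets how well they are translated and how long they last. The heart also makes Rpl3l, a paralog of Rpl3 found in striated muscle, which takes the place of Rpl3 near the catalytic centre of the large subunit.

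The annotated starts of some of the members that later stood apart are shown here, since the TOP motif lies there. Each window holds 15 bases before and 15 bases after a start in RefSeq on GRCm38.p6, and capitals mark the longest unbroken run of C and T on the coding strand.
Rpl13a (chr7:45128731-45128760, minus strand): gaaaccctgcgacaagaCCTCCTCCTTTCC
Rps12 (chr10:23787195-23787224, minus strand): taccgtcatgcggccaccgccggCCTTTTC
Rpl41 (chr10:128549154-128549183, minus strand): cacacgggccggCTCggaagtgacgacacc
Rpl39 (chrX:37085208-37085237, minus strand): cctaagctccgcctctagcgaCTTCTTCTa
Rps28 (chr17:33824548-33824577, minus strand): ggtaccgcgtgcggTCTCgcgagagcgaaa
Rplp0 (chr5:115559452-115559481, plus strand): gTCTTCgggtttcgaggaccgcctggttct
Rpl7l1 (chr17:46782642-46782671, minus strand): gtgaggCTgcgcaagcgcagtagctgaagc
Rpl3l (chr17:24727811-24727840, plus strand): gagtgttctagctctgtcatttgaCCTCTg
Within the window the longest run had 13 bases at Rpl13a, 7 at Rps12, 3 at Rpl41, 8 at Rpl39 and 4 at Rps28. It had 5 at Rplp0 and Rpl3l, and 2 at Rpl7l1. The runs of Rpl13a and Rps12 reach the last base of the window and could go on beyond it. A further RefSeq start of Rpl3l, not shown, had a longest run of 4. No RefSeq start was found for Rpl3. RefSeq starts were found for 63 of the 86 genes, with 75 promoters. Of these, 29 (38.7%) had a run of at least 8 such bases in the window, against 3943 of 32851 promoters of all genes. The letters CCGGAAG, on either strand, the core that ETS factors bind, stood in the 300 bases around the start in 34.7% of the ribosomal protein promoters and in 8.86% of all promoters. These matches depend on where the annotation sets the start.

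The 20 libraries held between 7867642 and 62668146 counts, and those of run 2 were the shallower ones (at most 11794615). The 13 hepatocyte genes were all lower in AL mice than in Ctrl mice, and none of them was at 0 in all mice. Their summed levels in run 1 were 7.16 to 45.4 CPM in AL, 9.91 to 207.9 CPM in LS and 50.1 to 332 CPM in Ctrl mice. In run 2 these levels were low and overlapped, at 1.979 and 3.437 CPM in the AL mice and 2.291 to 4.535 CPM in the Ctrl mice. The summed level of the 8 cardiomyocyte markers in run 1 was 48520 to 59540 CPM in AL, 64040 to 71430 CPM in LS and 61950 to 67640 CPM in Ctrl mice, so that every AL mouse was below every other mouse, with 2 markers lower and 0 higher in AL than in Ctrl mice. In run 2 it was 62070 and 78780 CPM in the AL mice and 75500 to 80270 CPM in the Ctrl mice, which overlapped. Of the 5 proliferation markers 2 were higher in AL than in Ctrl mice and all 5 were higher than in LS mice. Of the 8 macrophage markers 2 were higher in AL than in Ctrl mice and 0 were higher than in LS mice. Their summed levels in run 1 were 375 to 583 CPM in AL, 342 to 397 CPM in LS and 303 to 458 CPM in Ctrl mice. Markers were called at an edgeR FDR under 0.05. Of all genes, 10.7% were called higher and 15.4% lower against Ctrl mice, and 9.78% and 13.6% against LS mice. The 2 AL mice of run 2 stood far apart in cell type markers, at 187.6 and 758.7 CPM for macrophages and 384.8 and 4438 CPM for the 6 fibroblast markers, against 232 to 297 CPM and 525 to 867 CPM in the Ctrl mice of that run. Their neutrophil markers summed to 20.05 and 30.5 CPM, against 1.67 to 4.84 CPM in those Ctrl mice. Levels in whole tissue cannot tell fewer cells of a type from less RNA per cell. Where nothing else is said, the part of these values in the results below was not tested.

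Ribosomal protein mRNA made up little of the counts and had its highest mean in AL mice within each run. In run 1 the summed level of the 86 genes was lowest at 13790, median 15490 and highest at 18190 CPM in AL mice, where the mean was 16050 ± 1533 CPM (SD, n = 7). It was 15550, 16670, 14970 and 13900 CPM in the LS mice, and 13660, 14320, 13780 and 13220 CPM in the Ctrl mice. The AL and Ctrl mice overlapped by a single AL mouse (AL2), and the LS mice lay across the range of both. In run 2 the sums were 11780 and 10970 CPM in the AL mice, against 8076, 7705 and 10910 CPM in the Ctrl mice. Both AL mice were above all 3 Ctrl mice there, but Ctrl7 came within 60 CPM of the lower one. As a share of all counts, the genes took 1.33 to 1.84% in AL, 1.20 to 1.47% in LS and 1.24 to 1.43% in Ctrl mice of run 1, and 0.819 to 1.43% in run 2.

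**Figure D1:**
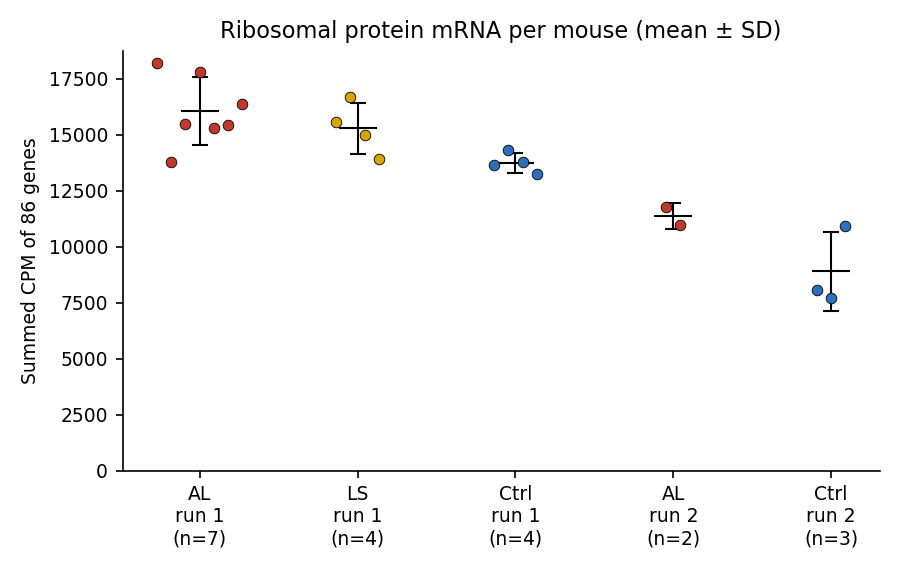
Summed level (CPM, vertical axis) of the 86 ribosomal protein genes in each mouse, by group and sequencing run; bars give mean ± SD. Run 1 AL mice lie between 13790 and 18190 CPM and run 1 Ctrl mice between 13220 and 14320 CPM, and all run 2 mice are lower than all run 1 mice.

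Per length of transcript, in run 1, abundant members were Rplp1 (515 CPM per kb), Rpl10 (507.5), Rps15 (461) and Rps29 (456). The median of the 82 genes that could be tested was 243 CPM per kb. Those with the lowest levels were Rpl6l (0.608 CPM per kb) and Rps4l (5.05), both annotated as pseudogenes, followed by Rps20 (26.3), Rpl7l1 (32.01) and Rpl22l1 (36.2). The value of Rps20 rests on an annotated transcript of 3706 bases, far longer than its coding part, and its CPM of 97.5 is not low. Rpl3 stood at 132 CPM per kb and Rpl3l at 97.3 CPM per kb, so that the muscle paralog was expressed at a level of the same order. Rpl10l, the testis paralog of Rpl10, had 0 counts in every mouse, which allows up to 0.0479 to 0.381 CPM depending on the library. Rpl39l reached at most 9 counts in a library, Rpl32l at most 2, and Rps12l1 had counts in 3 mice. These 4 genes did not pass the filter on low counts and were not tested.

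The question was whether ribosomal protein mRNA differs between AL and Ctrl mice. These groups differ by transgene, injection and deposits together. Of the 82 genes tested, 46 were higher in AL mice at an FDR under 0.05, against 10.7% of all genes tested, and 1 was lower, against 15.4% of all genes (edgeR quasi-likelihood test, Benjamini-Hochberg adjustment over 14477 genes, with run in the model). The changes were small. The 46 genes had log2 fold changes (log2FC) of 0.16 to 0.77 with a median of 0.36 (1.28-fold), and the median over all 82 genes was 0.30, against 0.01 over all genes tested. The log2FC was above 0 for 77 of the 82, against 51.6% of all genes. The median was 0.18 for LS against Ctrl and 0.10 for AL against LS. Both subunits moved: 17 of 32 small subunit genes were higher and 0 lower, and 29 of 50 large subunit genes were higher and 1 lower. With the study's additional limit of 0.58 on the absolute log2FC, 2 of the genes were called, Rpl3 and Rpl41, against 4.1% of all genes called higher by that rule, and 0 were lower, against 3.71%. This count was 4 without Ctrl7 and 1 without AL1, AL4, AL8, LS1, LS2, LS4, Ctrl4, Ctrl5 or Ctrl6.

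Rpl3, a protein that reaches towards the peptidyl transferase centre, was the most changed member. It is encoded on chromosome 15 (80077791 to 80091868, minus strand, GRCm38). In run 1 its level was lowest at 167, median 217 and highest at 241 CPM in AL mice, 184, 179, 180 and 136 CPM in LS mice, and 124, 160, 135 and 103.5 CPM in Ctrl mice. In run 2 it was 163 and 199 CPM in AL mice and 76.5, 97.4 and 106 CPM in Ctrl mice. Every AL mouse was above every Ctrl mouse of its run, and the LS mice overlapped both groups. The log2FC of AL against Ctrl was 0.77 (SE 0.11, edgeR FDR 1.96e-04). Reads of Rpl3 can be split with its pseudogenes, and the log2FC was 0.57, under the limit of 0.58 but past the FDR, once the counts of named pseudogenes were added to the parent gene.

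Rpl41, the smallest protein of the large subunit, came next. Its level in run 1 was lowest at 102, median 125 and highest at 158 CPM in AL mice, 96.7, 114, 107 and 91.1 CPM in LS mice, and 93.5, 93.1, 97.7 and 85.4 CPM in Ctrl mice. In run 2 it was 72.9 and 77.5 CPM in AL mice against 38.2, 26.9 and 55.3 CPM in Ctrl mice. AL and Ctrl mice did not overlap within either run. The log2FC was 0.59 (SE 0.12, edgeR FDR 0.00241), and the call was lost under 2 of the alternatives, among them ComBat-seq (0.53).

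Rpl13a, a large subunit protein that also takes part in silencing of inflammatory mRNAs, showed the same order of groups. Its level in run 1 was lowest at 246, median 301 and highest at 348 CPM in AL mice, 251, 232, 221 and 220 CPM in LS mice, and 237, 238, 209 and 189 CPM in Ctrl mice. In run 2 the AL mice had 200 and 209 CPM and the Ctrl mice 117, 115 and 150 CPM. The AL mice were above the Ctrl mice in both runs, with a log2FC of 0.53 (SE 0.08, edgeR FDR 2.94e-04).

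Rpl37 and Rpl26 completed the 5 largest increases. Rpl37, a small zinc-binding protein of the large subunit, had a log2FC of 0.50 (SE 0.14, edgeR FDR 0.0122). Rpl26 had a log2FC of 0.49 (SE 0.17, edgeR FDR 0.0455), but it did not vary smoothly between mice. In the Ctrl mice of run 1 it was 195 CPM in Ctrl1 and 139, 142 and 122 CPM in the others, and in run 2 it was 60.1 and 67.7 CPM in 2 Ctrl mice and 161 CPM in Ctrl7, which was above both AL mice (120.5 and 91.3 CPM). Its call was lost under 24 of the alternatives.

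Among other named members, Rps12 (log2FC 0.44), Rps20 (0.46), Rps28 (0.43) and Rps15 (0.42) of the small subunit rose in AL mice. Rplp1 had a log2FC of 0.28 that did not pass the test (edgeR FDR 0.180), and neither did Rpl10 (0.06, FDR 0.601). The 3 proteins of the P-stalk, Rplp0, Rplp1 and Rplp2, which recruits the translation factors, were called in 0 cases in either direction. The counts of calls depended on how the run was treated. With the runs adjusted by ComBat-seq, as the study did, 1 gene (Rpl3) was called, at a median log2FC of 0.27, where 2.36% of all genes were called higher and 3.11% lower, so that the members were not called more often than other genes. Without a run term 22 were called, of which 21 higher, against 5.82% of all genes higher. With an offset for transcript length 27 were called, of which 24 higher, against 10.1% of all genes, and the median was 0.15. With the hepatocyte genes as a covariate 26 were called, all higher, against 6.8% of all genes, at a median of 0.30.

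**Figure D2:**
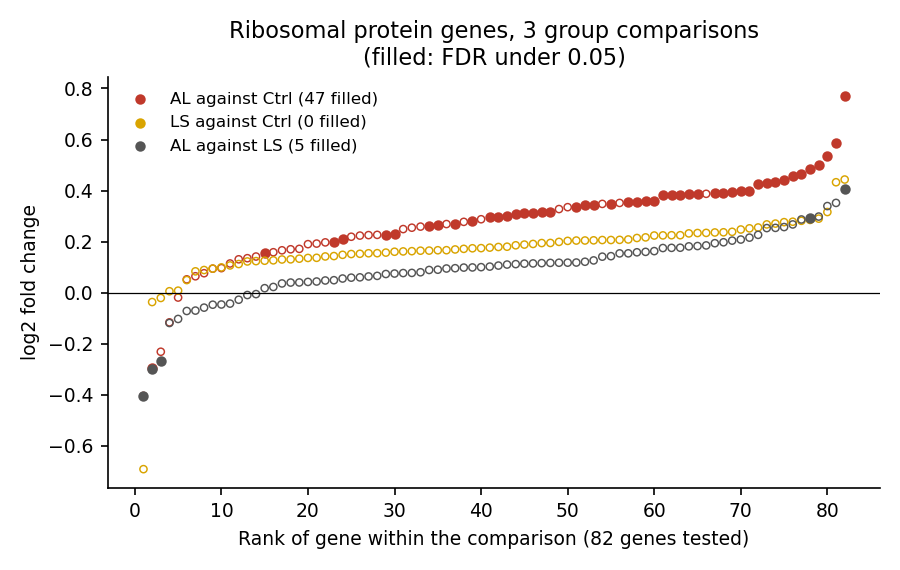
Log2 fold changes (vertical axis) of the 82 tested ribosomal protein genes, ranked within each of 3 comparisons (horizontal axis); filled points have an FDR under 0.05. The curve of AL against Ctrl lies highest with 47 filled points, LS against Ctrl has 0 and AL against LS has 5.

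The 2 runs, which share no mice, gave the same sign for most genes. Fitted alone, run 1 gave 47 genes higher (11% of all genes tested there) and 2 lower (14.6%), Rpl3l and Rplp0, with a median log2FC of 0.26. Run 2 alone, with 2 AL against 3 Ctrl mice, gave 0 calls in either direction (0.072% and 0.056% of all genes), while 22 of 81 genes had an unadjusted p under 0.05 and a higher level in AL, against 7.91% of all genes, and 0 a lower one, against 6.19%. Its median log2FC was 0.41. In both runs 75 of the 81 genes were higher in AL and 3 were lower, and 3 had opposite signs. Across the 81 genes the log2FC of the runs correlated with Pearson's r = 0.66 and Spearman's rho = 0.61, as a description only, since the genes share libraries, depth and length effects. In run 1, 27 of the 82 genes had every AL mouse above every Ctrl mouse, against 5.68% of all genes, and 1 (Rplp0) had every AL mouse below, against 8.66%. In run 2 there were 29 above, against 14%, and 1 below (Rpl7l1), against 18%.

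**Figure D3:**
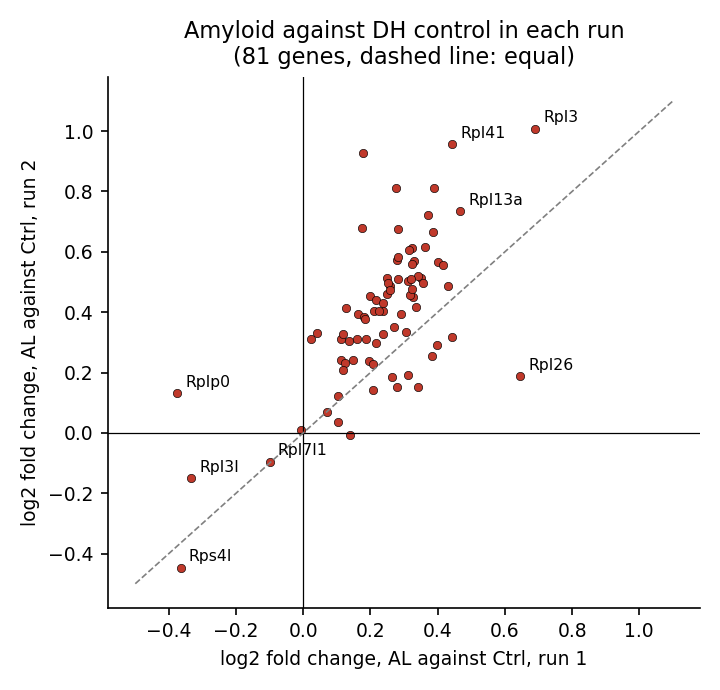
Log2 fold change of AL against Ctrl in run 1 (horizontal axis, 7 against 4 mice) and in run 2 (vertical axis, 2 against 3 mice) for 81 genes. Of the points, 75 lie in the upper right, where both runs are higher in AL, 3 lie in the lower left, and Rpl3 is at 0.69 in run 1 and 1.01 in run 2.

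The difference between AL and Ctrl mice was tested for a change between the runs. This called 0 genes (0.594% and 0.891% of all genes called higher and lower). At an unadjusted p under 0.05, 4 genes had a higher log2FC in run 2 than in run 1 (Rpl13, Rpsa, Rps2 and Rplp0, named after their values were seen) and 0 a lower one, against 8.37% and 8.78% of all genes, and DESeq2 also called 0. The median of the difference was 0.12. Without Ctrl7, whose ribosomal protein levels were the highest of the 3 Ctrl mice of run 2, this median rose to 0.34 with 1 call (Rpl37). AL against Ctrl then gave 66 calls, 65 higher (11% of all genes) and 1 lower (15.4%). Without AL8 the median of the difference between the runs was 0.01 with 2 calls, Rpl13 and Rps2. Both were higher, where 7.49% of all genes were higher and 8.5% lower.

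Rpl3l moved against Rpl3. Rpl3l is encoded on chromosome 17 (24727820 to 24736143, plus strand, GRCm38). Its level in run 1 was lowest at 99.8, median 117 and highest at 150 CPM in AL mice, 143, 152, 139 and 153 CPM in LS mice, and 131, 146, 153 and 165 CPM in Ctrl mice. In run 2 it was 165 and 141 CPM in AL mice and 180, 145 and 202 CPM in Ctrl mice. Of the AL mice of run 1, 6 were below all LS and Ctrl mice, whereas in run 2 the groups overlapped. The log2FC was -0.29 against Ctrl (SE 0.09, edgeR FDR 0.018) and -0.30 against LS (SE 0.10, FDR 0.0405), and 0.01 for LS against Ctrl (SE 0.11, FDR 0.998). The lower summed level of cardiomyocyte markers in the AL mice of run 1 goes with these values, and its part in them was not tested. The call against Ctrl was lost with ComBat-seq, with the hepatocyte covariate and without Ctrl4, and that against LS under 13 of the alternatives.

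The ratio of both genes does not depend on the scaling of the libraries. It rests on raw counts, however, and reads of Rpl3 can be split with its pseudogenes. The part of this split in the ratio was not tested. In run 1 there were 57.2 ± 12.7 Rpl3l counts for every 100 counts of Rpl3 in AL mice (SD, n = 7; range 41.4 to 76.0), 88.0 ± 16.6 in LS mice (n = 4; 77.3 to 112) and 118 ± 29.2 in Ctrl mice (n = 4; 91.4 to 159). Every AL mouse was below every LS and Ctrl mouse, and Ctrl and LS mice overlapped. The mean log2 ratio was lower in AL mice by 0.84 than in LS and Ctrl mice together, which is a ratio of 0.56 of theirs (exact permutation test, two-sided, p = 3.11e-04 over all splits of the 15 mice). The difference was -1.04 against Ctrl alone and -0.63 against LS alone (exact permutation, p = 0.00606 for each, the smallest that 330 splits can give). In LS against Ctrl it was -0.40 (exact permutation, p = 0.0857). In run 2 it was -1.15, at 71.0 and 101 Rpl3l per 100 Rpl3 in the AL mice and 149 to 235 in the Ctrl mice, where 2 against 3 mice cannot reach a p below 0.2 (exact permutation, p = 0.2, the smallest possible). Adjusted over these 5 comparisons by Benjamini-Hochberg, the exact permutation p-values were 0.00155 for AL against both other groups, 0.0101 for AL against Ctrl and against LS, 0.107 for LS against Ctrl and 0.2 in run 2. Both genes are members, which were chosen with earlier results of these data known, so these p-values do not come from a blind choice of the pair. LS against Ctrl was added later, after the data were seen.

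**Figure D4:**
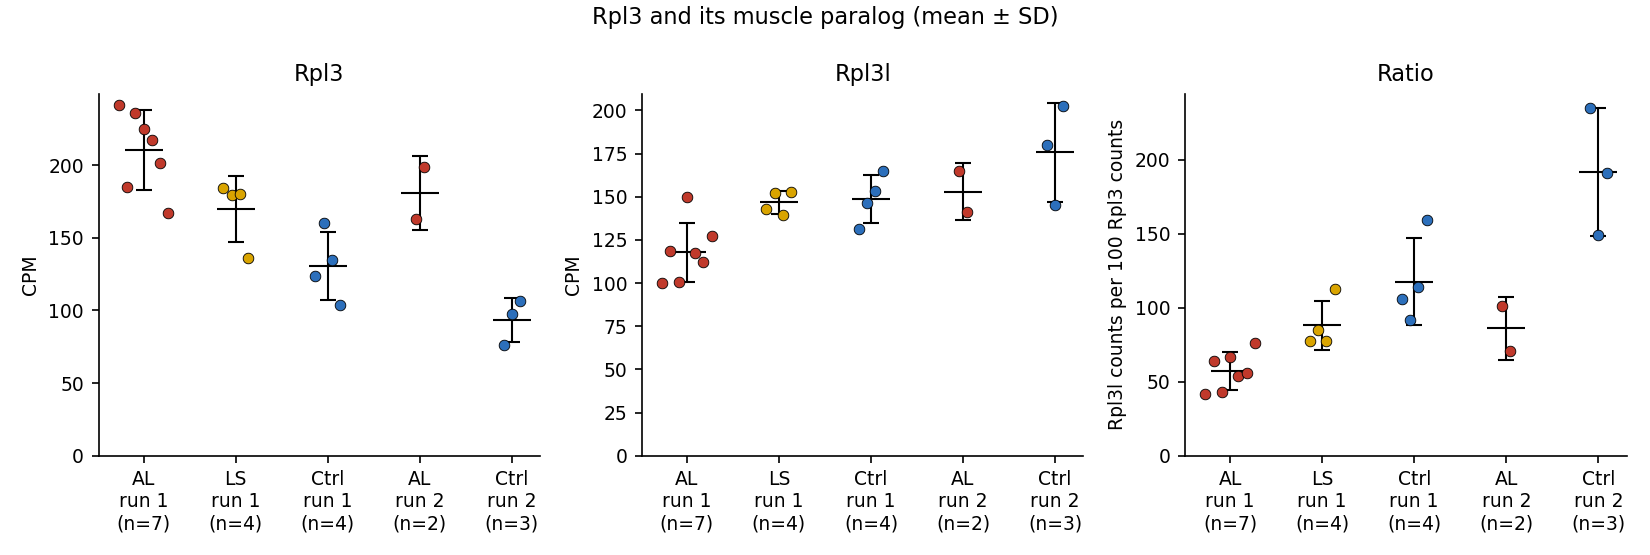
Levels of Rpl3 and of Rpl3l (CPM) and the number of Rpl3l counts per 100 Rpl3 counts in each mouse, by group and run; bars give mean ± SD. In run 1 the ratio lies between 41.4 and 76.0 in AL mice and between 77.3 and 159 in LS and Ctrl mice.

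In 3 other pairs the paralog and the common gene had the same sign. Rpl22l1 rose in AL mice (log2FC 0.40, SE 0.14, edgeR FDR 0.0403) while Rpl22 had a log2FC of 0.14 (FDR 0.0843). Their ratio in run 1 was 20.6 ± 2.47 per 100 in AL (n = 7), 17.8 ± 1.84 in LS and 18.36 ± 1.053 in Ctrl mice, so that the ranges overlapped. Rps27l, a p53 target, rose (log2FC 0.30, FDR 0.0409), and Rps27 had 0.16 (FDR 0.420), with ratios of 30.2 ± 2.71, 28.5 ± 4.22 and 27.5 ± 3.50 per 100 in AL, LS and Ctrl mice of run 1. The calls of Rpl22l1 and Rps27l were lost under 17 and 21 of the alternatives. Rpl36a rose (log2FC 0.31, FDR 0.0124) and Rpl36al, outside the name rule, had 0.19 (FDR 0.0956).

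Rpl7l1, a paralog of Rpl7, was lower relative to Rpl7 in AL mice. Its ratio to Rpl7 in run 1 was 9.45 ± 0.90 per 100 in AL mice (n = 7), 11.7 ± 0.48 in LS and 11.4 ± 0.53 in Ctrl mice, and all AL mice (7.77 to 10.6) were below all LS and Ctrl mice (10.9 to 12.2). In run 2 it was 7.59 and 9.95 in the AL mice against 11.7 to 12.6 in the Ctrl mice. This ratio was not tested. Rpl7 itself rose against Ctrl (log2FC 0.23, SE 0.07, edgeR FDR 0.017), while Rpl7l1 had -0.12 (FDR 0.112). Rps4x, the X-linked member of the small subunit, rose (log2FC 0.26, FDR 0.0288), and its pseudogene copy Rps4l had -0.40 (SE 0.27, FDR 0.275).

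AL mice were next compared with LS mice, which also carry the light chain. LS mice had neither injection nor deposits, so the parts of injection and deposits cannot be told apart. Few members differed. Of 82 genes 2 were higher in AL, Rpl13a and Rps12, against 9.78% of all genes, and 3 were lower, Rplp0, Rpl3l and Rpl7l1, against 13.6% (edgeR, FDR under 0.05). The median log2FC was 0.10, against 0.01 for all genes, and 68 genes were above 0, against 51.4%. The median was 0.05 without LS4 and 0.03 with the length offset. None of the 5 reached the study's limit of 0.58, which 5.86% of all genes passed upwards and 3.03% downwards. Of the 82 genes 0 had every AL mouse of run 1 above every LS mouse (8.94% of all genes) and 2, Rplp0 and Rpl7l1, had every AL mouse below (11.6%).

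Rplp0, the scaffold of the P-stalk and a common reference gene in PCR, was the most lowered. Its level in run 1 was lowest at 333, median 370 and highest at 406 CPM in AL mice, 598, 503, 474 and 460 CPM in LS mice, and 551, 443, 454 and 472 CPM in Ctrl mice. In run 2 the AL mice had 389 and 308 CPM and the Ctrl mice 315, 277 and 396 CPM. All AL mice of run 1 were below all LS and Ctrl mice of that run, but in run 2 AL and Ctrl mice overlapped. The log2FC was -0.41 against LS (SE 0.11, edgeR FDR 0.0137) and -0.23 against Ctrl over both runs (SE 0.09, FDR 0.073). Within run 1 alone it was -0.38 against Ctrl (FDR 0.00491), and in run 2 alone 0.13 (FDR 0.795). The difference of the runs had an FDR of 0.197. The call against LS was lost with ComBat-seq, with the hepatocyte covariate and without LS1.

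Rpl7l1 was 35.4 to 42.7 CPM (median 39.1) in AL mice of run 1 and 46.1, 48.3, 46.96 and 46.2 CPM in LS mice, which did not overlap. The Ctrl mice of that run had 39.2, 39.7, 47.02 and 41.9 CPM and lay across both. Its log2FC was -0.27 against LS (SE 0.06, edgeR FDR 0.00492).

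Rpl13a was 0.41 higher than in LS mice on the log2 scale (SE 0.10, edgeR FDR 0.00645), and AL2 (246 CPM) was the only AL mouse of run 1 that did not exceed every LS mouse. Rps12, whose level in run 1 was 160 to 235 CPM in AL and 168, 175, 140 and 149 CPM in LS mice, was 0.29 higher (SE 0.10, FDR 0.0355), with overlapping groups. Its call was lost under 11 of the alternatives. Rpl3 had a log2FC of 0.34 against LS (SE 0.13, FDR 0.0641) and Rpl41 0.35 (SE 0.15, FDR 0.0918), neither of which passed. With run 1 alone 9 genes were called, 6 higher (15.6% of all genes) and 3 lower (16.9%). DESeq2 called 8, of which 5 higher (14.2% of all genes) and 3 lower (14.7%). ComBat-seq left 0 calls, where 2.44% of all genes were higher and 2.07% lower. With the hepatocyte covariate 2 remained (Rpl13a and Rpl7l1), where 7.18% of all genes were higher and 10.8% lower. Without a run term 2 remained (Rpl7l1 and Rplp0), where the shares were 7.14% and 9.21%. Without LS1 there were 2, of which 1 higher, where they were 5.99% and 10.7%.

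Here the circulating light chain is compared without deposits, over 4 LS and 7 Ctrl mice. By edgeR 0 of 82 genes were called in either direction (0.00691% and 0.0138% of all genes), and 0 by DESeq2. At an unadjusted p under 0.05, 17 genes were higher in LS mice and 0 lower, against 2.51% and 3.43% of all genes. The log2FC was above 0 for 79 of the 82 genes, against 50.1% of all genes, with a median of 0.18, against 0.00. The 17 genes became 42 without Ctrl7 and 28 without LS4, but 5 without LS2, 7 with only the LS and Ctrl mice fitted and 2 with ComBat-seq. The largest belonged to Rpl26 (0.44, SE 0.22, FDR 0.843) and Rpl3 (0.43, SE 0.14, FDR 0.744). Rps4l had -0.69 (SE 0.35, FDR 0.850). These SEs leave room for changes of the size seen in AL mice, so the comparison does not show that LS and Ctrl mice are alike. Since AL against LS and LS against Ctrl share the LS mice, their values are not independent of each other.

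More members differed between the runs than between any pair of groups. Of 82 genes 70 were lower in run 2 than in run 1 at an FDR under 0.05, against 22.4% of all genes, and 1 was higher (Rpl3l, log2FC 0.30, SE 0.09, edgeR FDR 0.012), against 21.3%. The median log2FC was -0.67, against 0.00 for all genes, and 49 were lower by at least 0.58, against 10.3%. The difference is estimated with group in the model, from the AL and Ctrl mice that both runs hold. The study used mice of both sexes. Xist had 0 to 2 counts in the mice of run 2 and 7 to 21011 counts in those of run 1. In run 1 it had 12288 to 18778 counts in AL2, AL3 and AL4, and 8778 and 10078 in LS2 and LS3. It had 7912 to 21011 counts in Ctrl1, Ctrl2 and Ctrl3, and 7 to 269 in the other mice of run 1. With Xist as a covariate 60 members were lower in run 2, against 18.4% of all genes, and 0 higher, against 16.1%. AL against Ctrl then gave 41 members higher, against 9.01% of all genes, and 2 lower, against 14.1%.

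Rps29, a zinc-binding protein of the small subunit with a transcript of 390 bases, was nearly lost from run 2. It was 162 to 255 CPM in AL, 157 to 203 CPM in LS and 136 to 174 CPM in Ctrl mice of run 1, but 4.86, 5.94, 4.53, 3.98 and 6.61 CPM in the 5 mice of run 2. The log2FC between the runs was -5.01 (SE 0.15, edgeR FDR 3.9e-14). Rps28 (271 bases) fell by 2.57 and Rpl39 (612 bases) fell by 2.57 on the log2 scale. Rps29 still did not differ between AL and Ctrl beyond the threshold (log2FC 0.29, SE 0.11, FDR 0.065).

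The loss went with the length of the transcript. Members of up to 400 bases had a median run difference of -2.07 (n = 6), those over 400 and up to 500 bases -0.97 (n = 13), over 500 and up to 700 bases -0.87 (n = 21), over 700 and up to 1000 bases -0.42 (n = 23), and longer ones -0.34 (n = 19). Across the 82 genes the difference correlated with length at Spearman's rho = 0.67, as a description. Other protein-coding genes followed the same order, with medians of -1.45 (n = 20), -0.85 (n = 70), -0.55 (n = 244), -0.30 (n = 598) and 0.02 (n = 12897) in the same classes. With an offset for transcript length, 47 members were still lower in run 2, against 19.8% of all genes. Then 8 were higher, against 23.6% of all genes, and the median of the members was -0.27.

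**Figure D5:**
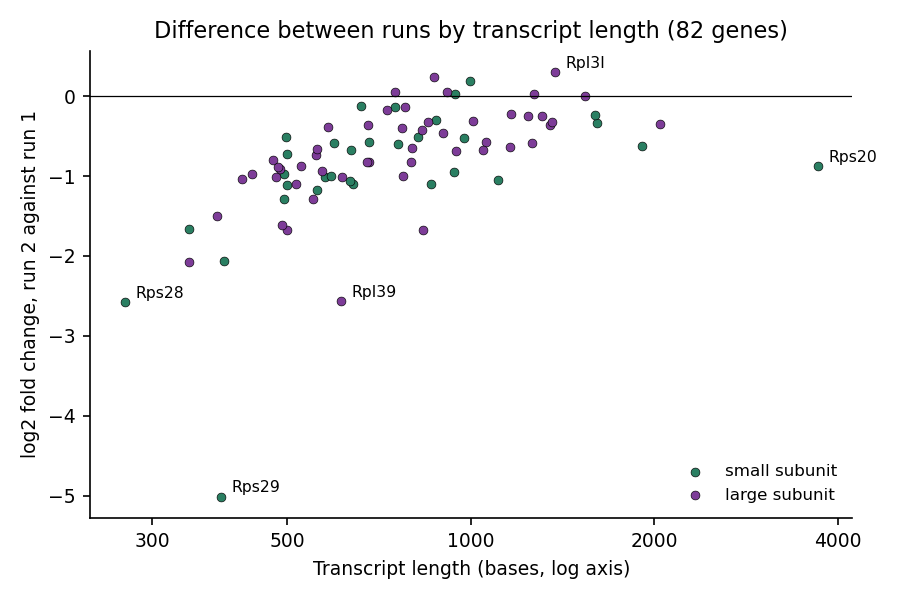
Log2 fold change of run 2 against run 1 (vertical axis) against transcript length in bases (horizontal log axis) for 82 ribosomal protein genes, coloured by subunit. Short transcripts lie lowest, with Rps29 at -5.01, while genes over 1000 bases have a median of -0.34.

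The difference between AL and Ctrl mice had no such order over length. The median log2FC of AL against Ctrl was 0.32, 0.30, 0.28, 0.27 and 0.31 from the shortest to the longest class of members (Spearman's rho with length -0.13). Other protein-coding genes of up to 1000 bases, however, had a median of 0.16 (n = 932) with 194 higher and 45 lower, against 0.29 for the members of that length (n = 63), of which 33 were higher and 0 lower. Genes over 1000 bases outside the family had a median of -0.004, against 0.31 for the 19 members of that length, 13 of which were higher and 1 lower. The part of transcript length in the difference between AL and Ctrl mice was not tested beyond the offset above.

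Lists of other genes of translation were taken by function, and AL was compared with Ctrl. The genes named from them were chosen after their values were seen, and each count stands against the 10.7% of all genes called higher and the 15.4% called lower. Of the other mRNAs that carry a TOP start, 11 of 22 were higher and 0 lower, with a median log2FC of 0.20. Among them were Fau (0.43), which encodes a fusion with ribosomal protein eS30, the elongation factor subunits Eef1g (0.28) and Eef1d (0.28), Rack1 (0.21), a signalling scaffold on the small subunit, and Vim (0.49), the intermediate filament vimentin. Of 8 elongation factor genes 3 were higher and 0 lower, all of them also on the TOP list. Of 6 ribosomal proteins outside the name rule 3 were higher and 0 lower.

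The genes that start translation or make ribosomes had calls in both directions. Of 30 initiation factor genes 5 were higher, all in the eIF3 complex, and 3 were lower, among them Eif4g1, the scaffold of the cap-binding complex (log2FC -0.31), with a median of -0.04. Of 33 ribosome biogenesis genes 3 were higher and 6 lower, the latter with Polr1a (-0.36) and Polr1b (-0.25), subunits of RNA polymerase I, and Dkc1 (-0.29), the pseudouridine synthase dyskerin, at a median of 0.02 and at shares near those of all genes. Of 13 gene entries for mTORC1 and its regulators 0 were higher and 5 lower: the inhibitors Deptor (-0.73) and Tsc1 (-0.25), and Mtor (-0.19), Rptor (-0.18) and the S6 kinase gene Rps6kb1 (-0.29). Mitochondrial ribosomal proteins, which are coded by separate genes, had 7 of 82 higher and 6 lower with a median of 0.03, no more often than all genes. Against LS mice, 1 of 22 other TOP mRNAs was higher and 1 lower, where 9.78% and 13.6% of all genes were.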

How the data were processed

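Polyadenylated RNA of the heart apex was sequenced from stranded libraries of 20 mice. Per the labels, the authors aligned reads to GRCm38 with STAR and quantified genes with Salmon, and deposited the estimated counts per gene without normalization. Salmon divides reads between similar sequences: 78.5% of the values of the ribosomal protein genes were not whole, against 14.2% of all values, so a member and a near-identical pseudogene cannot be fully told apart. Groups, replicate numbers and runs came from the sample labels, and columns were matched to mice by library name.

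Estimated counts were rounded and tested with the quasi-likelihood test of edgeR 4.0.16 in R 4.3.3 (filterByExpr with a minimum count of 10, TMM scaling, group and run as terms, 3 groups fitted together), with Benjamini-Hochberg adjustment over all 14477 genes tested. SE was derived from the F statistic. P-values are two-sided. Of these steps, only the edgeR test of AL against Ctrl was tried on simulated data. CPM is TMM-scaled. A count of 3 served as the floor of detection (0.0479 to 0.381 CPM), which covers counting error only. Paralog ratios used raw estimated counts with 0.5 added, and were tested by exact permutation over mice (scipy 1.17.1). Lengths are those of the shortest principal transcript of each gene in GENCODE M21 on GRCm38. Promoters are RefSeq on GRCm38.p6.

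The members, gene lists and alternatives were chosen with earlier results of these data known. Named genes were both genes of each paralog pair, members past the FDR of 0.05 and log2FC of 0.58, the 5 largest called changes in each direction and group comparison, the 5 most and 5 least abundant per kb, and the 3 with the largest run difference. Alternatives were RLE factors, DESeq2 1.42.0, other filters, ComBat-seq (sva 3.50.0), no run term, run 1 by itself, a block for the replicate number, only the groups compared, scaling without ribosomal protein or mitochondrially encoded genes, offsets for length and GC content, summed gene IDs, added pseudogene counts, Xist or hepatocyte genes as covariates, and each mouse left out. Some genes that this rule names are not reported here.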

Additional observations from a re-analysis of the deposited data

Results flagged for a closer look

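Within the groups of run 1, 81 sets of values (27 quantities in 3 groups) were searched for a mouse far from the others by Dixon's ratio at its 95% critical value, which chance passes in about 1 of 20 sets, and 4 were found. Rpl3 was 136 CPM in LS4 against 179 to 184 CPM in the other LS mice, so that the mean of the LS mice lies below 3 of them. Rps28 was 94.5 CPM in AL1 against 61.3 to 74.8 CPM in the other AL mice. Rpl7 was 392.5 CPM in Ctrl3 against 357 to 362 CPM, and Rps20 was 90.0 CPM in Ctrl2 against 79.5 to 80.9 CPM in the other Ctrl mice.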

How the results depend on the processing

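The number of ribosomal protein genes called in AL against Ctrl, 47, became 1 with ComBat-seq and 22 without a run term. It was 15 with the replicate number as a block, 13 higher, against 5% of all genes, and 2 lower, against 9.9%. It was 27 with the length offset and 26 with the hepatocyte covariate. When mice were left out in turn it lay between 36 and 66. In AL against LS the 5 calls became 0 with ComBat-seq, 2 without a run term, 9 in run 1 alone, 8 with DESeq2 and 2 with the hepatocyte covariate, and 2 to 6 without single mice. The median log2FC of AL against LS turned to -0.034 without a run term. LS against Ctrl gave 0 calls under all alternatives. The run difference stayed between 66 and 71 calls without single mice. The test of AL against Ctrl between the runs gave 0 to 2. The Rpl3l to Rpl3 ratio ranged from -0.911 to -0.742 on the log2 scale without single mice, and in run 2 alone it was -1.151 with a p that could not pass. The 20 calls of named genes kept their sign under every alternative; 612 of 740 values kept the call and 128 lost it. Rpl41 lost its call in AL against Ctrl with ComBat-seq and with the block (0.456). Rpl3 kept its call in AL against Ctrl throughout, at 0.717 to 0.856 without single mice.

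Same-numbered mice of different groups did not deviate together: over 15 pairs the correlations of their deviations ran from -0.228 to 0.293, 4 were over 0.1, and 3 of 20 mice correlated best with their own number. The block was therefore not used. With it the run difference gave 52 calls, all lower, against 12.8% of all genes. AL against LS gave 4, of which 1 higher (8.74% of all genes) and 3 lower (12.7%). The change of AL against Ctrl between the runs could not be fitted with it. The shallow second run limits values of single genes there. The causes of these changes were not tested.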
